A study of Mus musculus with 16 samples.

Results

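Besides *Scx*, tendon cells are marked by other regulators of transcription, and 6 of them were followed here: *Mkx*, *Egr1*, *Egr2*, *Six2*, *Eya1*, and *Eya2*. The set is defined by gene name, and each gene was found once in both deposited tables, among 29629 genes in the single-cell table and 47729 genes in the bulk table. The single-cell data were from *ScxGFP* iPSCs, which are mouse induced pluripotent stem cells carrying a GFP transgene under *Scx* regulatory sequences. They were differentiated into mesodermal cells (T0) and then given recombinant TGF-β2 at 10 ng/ml, and cells were taken on day 3 (T3), day 6 (T6), and day 9 (T9). Each time point was covered by 3 plates of 384 wells. The bulk data were from the Achilles tendon of 2-week-old mice, 2 wild-type (Scx_Wt) and 2 homozygous for a disrupted *Scx* gene (Scx_KO), 1 library per mouse. The cultured cells came from a single iPSC clone, and the labels do not say that the plates of a time point came from separate cultures, so that p-values across plates measure only the spread between plates. T0 cells were detached with trypsin alone, whereas T3 to T9 cells were digested with collagenase and then trypsin. Digestion and time therefore cannot be told apart between T0 and the later plates.

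The homeobox gene *Mkx* (mohawk) is expressed in tendon progenitors and is needed for normal collagen fibrils. *Egr1* and *Egr2* encode zinc finger factors that act downstream of TGF-β and mechanical load in tendon, and both are also immediate early genes, whose transcription rises within minutes of serum, stress, or handling of cells. *Egr2* is in addition the regulator of myelination in Schwann cells. *Six2* encodes a homeodomain factor found in limb tendons and other mesenchyme, and *Eya1* and *Eya2* encode co-activators with phosphatase activity that bind the product of *Six2* and related proteins but do not bind DNA themselves.

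RefSeq promoter windows matched 2 of the 6 genes, *Egr2* and *Six2*, and their sequence is shown because *Egr2* is an immediate early gene and *Six2* was the member called between classes of cells at T9. Each sequence is the 250 bases before a RefSeq start site on GRCm38.p6, written 5′ to 3′ on the strand of the gene. Capitals mark a CArG box, the binding sequence of serum response factor, which is known from the promoters of many immediate early genes.
*Egr2*, chr10:67537316-67537565, plus strand: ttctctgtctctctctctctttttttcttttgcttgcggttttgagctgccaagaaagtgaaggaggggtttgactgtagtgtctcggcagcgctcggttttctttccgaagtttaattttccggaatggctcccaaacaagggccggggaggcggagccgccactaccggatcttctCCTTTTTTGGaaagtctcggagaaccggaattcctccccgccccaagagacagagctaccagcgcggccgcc
*Egr2*, chr10:67537619-67537868, plus strand: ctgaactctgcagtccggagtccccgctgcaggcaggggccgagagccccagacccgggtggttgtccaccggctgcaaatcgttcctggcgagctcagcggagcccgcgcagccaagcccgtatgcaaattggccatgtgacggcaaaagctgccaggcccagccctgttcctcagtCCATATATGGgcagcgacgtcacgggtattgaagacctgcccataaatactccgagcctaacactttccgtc
*Six2*, chr17:85688255-85688504, minus strand: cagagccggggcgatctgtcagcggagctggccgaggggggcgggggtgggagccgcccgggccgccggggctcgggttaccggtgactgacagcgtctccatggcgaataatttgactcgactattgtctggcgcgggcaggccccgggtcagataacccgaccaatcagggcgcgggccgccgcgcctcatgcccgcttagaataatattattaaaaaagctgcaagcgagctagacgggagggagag
A CArG box was found in 4 of the 5 windows of *Egr2*, in the forms CCTTTTTTGG and CCATATATGG, and not in the 1 window of *Six2*. The windows with CCATATATGG overlap and hold the same box. In the 2 windows shown it began 72 bases before the start site. The same search, on both strands of the 250 bases before each RefSeq start site, found a CArG box in 1.47% of 32851 windows. Neither gene held the CRE (TGACGTCA, 1.55% of all windows), the AP-1 site (TGACTCA or TGAGTCA, 4.46%), the Egr site (GCGGGGGCG or GCGTGGGCG, 3.06%), or the E-box of the Scx type (CATCTG or CAGATG, 14.4%).

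After wells with fewer than 200 detected genes were left out, 4594 of 4608 wells remained, between 1147 and 1151 cells at each time point. Plates held from 1921125 to 4657093 UMIs (unique molecular identifiers, each counting 1 captured mRNA molecule), and the bulk libraries held between 11188270 and 12398560 reads assigned to genes. The median number of UMIs in a cell was 10175 (T0), 5703 (T3), 8794 (T6), or 7900 (T9), and shares called thinned were taken from the 4301 of 4594 cells with at least 3000 UMIs, each reduced to 3000 UMIs at random. Other shares are of all cells kept. The same 384 well barcodes were used in all 12 plates. Libraries of a group differed beyond counting error, since chi-square per gene was 3.18 to 57.6 between plates and at least 22.4 between mice. T3 plate 2 (up to 32.0), T6 plate 2 (49.6 or more), and T9 plate 3 (53.5 or more) stood apart from the other plates of their time point, and calls that changed without one of them are given with the result. In the paper's mapping statistics, T3 plate 2, T9 plate 3, all T0 plates, and the T6 plates other than plate 2 had more reads without a gene. No T0 plate had fewer, so this split of the libraries is not balanced between T0 and later plates. At T6 and T9, the plates with more such reads also had more *Egr1* and *Egr2*, which was not so at T3. The part of this split in their levels was not tested. Levels are in CPM, the UMIs or reads of a gene scaled to the total of the same plate, cells, or mouse. *Tnmd*, a marker of tendon cells, had 0 UMIs at T0 and 106 CPM ± 37.9 at T9 (SD, n = 3 plates), and it had 1460 and 1257 CPM in the tendons of Scx_Wt mice. Changes are log2 fold changes with their standard error from edgeR's quasi-likelihood test, fitted over all genes, with Benjamini-Hochberg adjustment and a threshold of 0.05 for a call. They are taken after TMM scaling between libraries, whereas the CPM printed are scaled to totals only. A change can therefore differ from the ratio of the printed levels, even in sign.

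Between T0 and T3, 5 of the 6 genes rose (*Mkx*, *Egr1*, *Egr2*, *Six2*, and *Eya2*), in a comparison in which 33.2% of the 13372 genes tested were called. The median change of the 6 was 2.36 on the log2 scale, against 0.01 for all genes. Between T3 and T6, *Egr1* and *Egr2* rose again, where 4.24% of genes were called. No member was called between T6 and T9, where 1.62% of genes were called and *Mkx* had the lowest unadjusted p (0.0083) of the 6. From T0 to T9, *Mkx*, *Egr1*, *Egr2*, and *Six2* were called, all higher at T9, and 45.2% of all genes were called. With shares this large between T0 and the later plates, the count of members called in those comparisons says little on its own, and the order and size of each gene's change are given below.

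**Figure D1:**
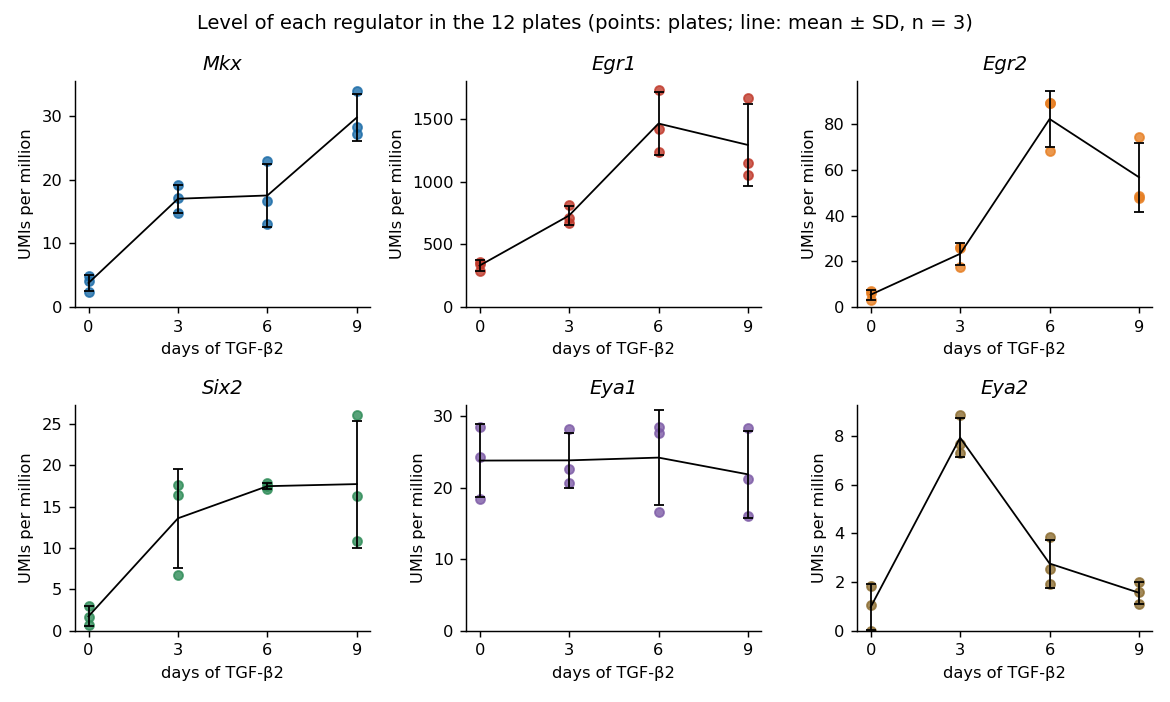
Level of each gene in CPM (vertical axes, starting at 0 and different for each gene) against days of TGF-β2; points are plates and the line joins means with SD (n = 3). *Mkx* was higher in the 3 T9 plates (27.2 to 33.9) than in any other plate, *Egr1* and *Egr2* had their highest means at T6, *Eya1* lay between 16.1 and 28.5 in all plates, and *Eya2* was highest at T3.

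*Egr1* (ENSMUSG00000038418, chr18:34859823-34864984 on GRCm38, plus strand) was already abundant before TGF-β2. Its level was 285, 362, and 345 CPM in the 3 T0 plates and 668, 710, and 810 CPM in the T3 plates. It reached 1729, 1240, and 1419 CPM at T6 and 1056, 1150, and 1669 CPM at T9. Each T3 plate lay above all T0 plates and below all later plates, while the T6 and T9 plates overlapped. The rise was 1.38 ± 0.19 (log2 ± SE; adjusted p = 0.000117, edgeR) from T0 to T3 and 1.00 ± 0.19 (adjusted p = 0.00895, edgeR) from T3 to T6. From T6 to T9 the difference was 0.04 ± 0.19 after TMM scaling (adjusted p = 0.934, edgeR), while mean CPM went from 1462 to 1292. After thinning, 45.9% ± 4.57 of T0 cells held an *Egr1* UMI, against 69.4% ± 7.17 at T3, 93.2% ± 2.38 at T6, and 88.1% ± 4.89 at T9 (SD, n = 3 plates).

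*Egr2* (ENSMUSG00000037868, chr10:67535475-67542188, plus strand) followed the same order at a lower UMI count. It had 3.01, 6.25, and 6.996 CPM at T0, 17.7, 25.8, and 26.5 CPM at T3, 89.3, 68.4, and 89.2 CPM at T6, and 48.6, 47.5, and 74.3 CPM at T9. The T0, T3, and T6 plates did not overlap, and 1 T9 plate lay within the range of T6. The first step of *Egr2* was 2.34 ± 0.27 (adjusted p = 2.05e-05, edgeR), the next was 1.83 ± 0.24 (adjusted p = 0.000855, edgeR), and its difference from T6 to T9 was -0.31 ± 0.22 (adjusted p = 0.505, edgeR). An *Egr2* UMI was found in 1.95% ± 1.40 of thinned T0 cells, 5.68% ± 2.499 of T3 cells, 17.3% ± 4.13 of T6 cells, and 11.4% ± 2.10 of T9 cells (SD, n = 3 plates). Of the other members of the family, *Egr4* had a log2 change of 2.91 between T3 and T6 (adjusted p = 0.0404, edgeR), while *Egr3* was near 0 at every time point (at most 1.502 CPM as a mean) and was not tested. *Nab2*, a co-repressor that binds Egr proteins and is itself induced by them, rose by 0.82 from T0 to T3 (adjusted p = 0.0232, edgeR).

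Immediate early genes rose over the same days. Of 18 tested, in a list that leaves out the Egr genes, 12 rose and none fell from T0 to T3, with a median of 0.86 against 0.01 for all genes, of which 17% rose. From T3 to T6, 8 rose and none fell, with a median of 0.77 against 0.03 for all genes, of which 2.61% rose. *Fos*, which forms the AP-1 factor with Jun proteins, had 172 CPM ± 16.9 (T0), 404 ± 67.0 (T3), 850 ± 163 (T6), and 907 ± 175 (T9) (SD, n = 3 plates). Its change was 1.49 ± 0.21 from T0 to T3 (adjusted p = 0.000109, edgeR) and 1.05 ± 0.21 from T3 to T6 (adjusted p = 0.00979, edgeR). *Nr4a1*, an orphan nuclear receptor, rose by 2.86 and 2.56 in the 2 steps, and *Fosb* rose by 2.01 and 1.66. Of the heat shock genes, 3 rose and 3 fell from T0 to T3 and none was called from T3 to T6. Their part in the change of *Egr1* and *Egr2* was not tested.

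The Egr genes were also compared in cells with and without a *Fos* UMI. *Egr1* was at 462 CPM ± 33.9 in T0 cells with *Fos* and at 147 ± 16.6 in T0 cells without it, and at T6 these levels were 1508 ± 225 and 809 ± 286 (SD, n = 3 plates). Cells without a *Fos* UMI numbered 527 (T0), 411 (T3), 99 (T6), and 132 (T9), with median depths of 9520, 5110, 6114, and 6485.5 UMIs. Among them, *Egr1* was higher at T3 than at T0, by 1.81 ± 0.30 (adjusted p = 0.000169, edgeR). Since *Fos* mRNA can be missed in these cells, more so at lower depth, this split cannot separate *Egr1* from *Fos*. Between T3 and T6 the difference of *Egr1* in these cells was 0.89 ± 0.30 and that of *Egr2* was 1.78 ± 0.69, and neither was called (adjusted p = 0.167 and 0.254, edgeR). These differences were close in size to those in all cells and rested on 99 cells at T6. With only the 6 plates of T3 and T6 in the fit, *Egr1* was also not called (0.97, adjusted p = 0.0525, edgeR).

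**Figure D2:**
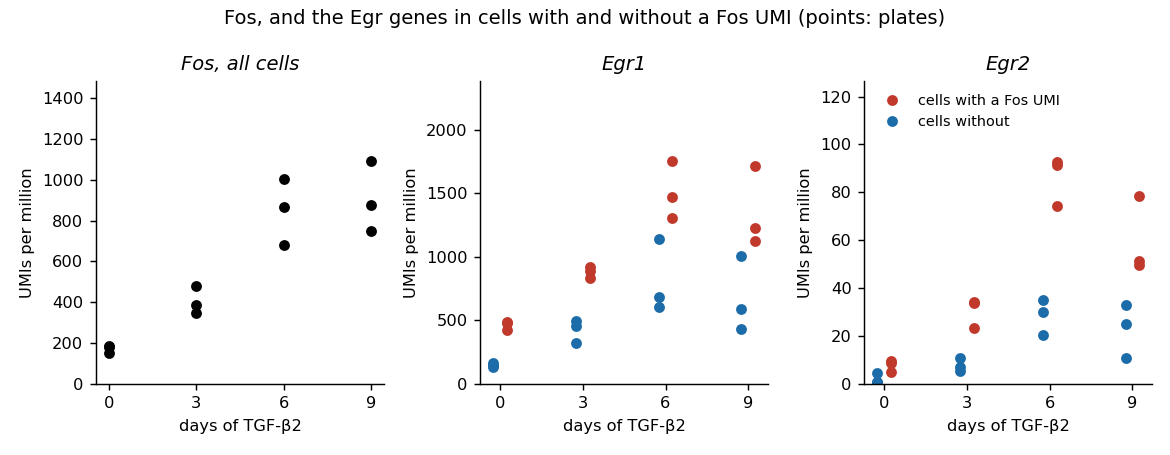
CPM (vertical axes from 0) of *Fos* in all cells, and of *Egr1* and *Egr2* in cells with and without a *Fos* UMI, against days of TGF-β2; each point is 1 plate, 3 per time point. All 3 genes were lowest at T0, and at each time point the mean *Egr1* and *Egr2* level was higher in cells with a *Fos* UMI.

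*Mkx* (ENSMUSG00000061013, chr18:6934518-7004780, minus strand) was low at T0, with 4.08, 4.86, and 2.42 CPM (19, 21, and 9 UMIs). It had 17.2, 14.7, and 19.2 CPM at T3, 16.6, 22.9, and 13.1 CPM at T6, and 33.9, 28.3, and 27.2 CPM at T9. All T9 plates were above all T6 plates, the T3 and T6 plates overlapped, and all T0 plates were below the rest. The change from T0 to T3 was 2.39 ± 0.39 (adjusted p = 0.000365, edgeR), that from T3 to T6 was 0.08 ± 0.34 (adjusted p = 0.938, edgeR), and that from T6 to T9 was 1.01 ± 0.33 (adjusted p = 0.150, edgeR). The last of these passed 0.05 when the number of reads without a gene (more or fewer, by library) was a covariate (0.77, adjusted p = 0.0424), without the filter on low counts (0.99, adjusted p = 0.0313), without T6 plate 2 (1.41, adjusted p = 0.0290), and without T9 plate 3 (1.23, adjusted p = 0.0463). It did not pass in the other alternatives run, so that whether *Mkx* rose again after T6 depended on the setting.

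*Mkx* was held by few cells. After thinning, 0.93% ± 0.42 of T0 cells, 4.397% ± 0.85 of T3 cells, 4.59% ± 1.86 of T6 cells, and 7.72% ± 1.64 of T9 cells had a UMI of it (SD, n = 3 plates), and no cell had more than 7 UMIs before thinning. To show what free RNA could give, 28 cells with pluripotency genes that remained at T3 to T9 held none of *Mkx*, *Six2*, *Eya1*, or *Eya2*, which allows a share of up to 10.7% of such cells for each. The other 3419 cells of these days held *Mkx* in 12.2%, *Six2* in 7.58%, *Eya1* in 11.3%, and *Eya2* in 2.16%, with a median depth of 7441 UMIs, whereas that of the pluripotent-like cells was 18636 UMIs. The exact binomial 95% interval for 0 of 28 reaches 12.3%, so that 28 cells are too few to set any of these 4 shares above free RNA. *Egr1* was found in 27 of the 28 and *Egr2* in 4 of them (14.3%, exact binomial 95% interval 4.03 to 32.7), against 91.3% and 21.8% of the other cells. *Scx* itself was found in 11 of the 28 (39.3%), at 24.2 CPM against 479 CPM in the other cells, and the part of free RNA in the calls of *Scx*+ cells below was not tested. At T0, 63 pluripotent-like cells held *Mkx* in 1 (1.59%), *Six2* in 2 (3.17%), *Eya1* in 3 (4.76%), and *Eya2* in 0. The other 1084 T0 cells held these genes in 3.87%, 1.29%, 16.3%, and 0.92%. Median depths were 18192 and 9940.5 UMIs.

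*Mkx* belongs to the TALE class of homeobox genes, whose other members are given beside it. Of 14 tested, 2 rose and 7 fell between T0 and T9, with a median of -0.65 against -0.02 for all genes, of which 23.6% rose and 21.6% fell. Those that rose were *Mkx*, by 3.47 ± 0.38 (adjusted p = 5.85e-06, edgeR), and *Pknox2*, by 1.70. The Iroquois genes *Irx3*, *Irx4*, and *Irx5*, the nearest relatives of *Mkx*, had changes of -4.02, -5.24, and -3.59 on the log2 scale. *Irx5* was at 42.9 CPM ± 14.5 at T0 and at 2.61 ± 1.48 at T9 (SD, n = 3 plates). *Pbx2*, whose product pairs with other TALE proteins on DNA, fell by 1.34.

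*Six2* (ENSMUSG00000024134, chr17:85684277-85688274, minus strand) had 0.64, 3.01, and 1.61 CPM at T0 (3, 13, and 6 UMIs). It had 6.77, 17.7, and 16.4 CPM at T3 and 17.1, 17.5, and 17.8 CPM at T6. At T9 the plates spread to 26.1, 10.9, and 16.2 CPM. T0 plates were below all others, and the later time points overlapped. *Six2* rose by 3.16 ± 0.52 from T0 to T3 (adjusted p = 0.00039, edgeR), with 0.39 ± 0.42 from T3 to T6 and 0.30 ± 0.40 from T6 to T9 (adjusted p = 0.673 and 0.750, edgeR). Thinned shares were 0.56% ± 0.27 at T0 and 3.29% ± 1.89, 4.34% ± 0.52, and 3.40% ± 1.94 at T3, T6, and T9 (SD, n = 3 plates).

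*Eya2* (ENSMUSG00000017897, chr2:165595032-165771727, plus strand) rose at T3 and was lower afterwards. It had 0, 8, and 4 UMIs in the T0 plates, 14, 24, and 22 in the T3 plates, 15, 8, and 8 at T6, and 4, 5, and 6 at T9. In CPM the T3 plates (7.29 to 8.84) were above every plate of the other time points, of which the highest was 3.84 at T6. From T0 to T3 it rose by 3.21 ± 0.69 (adjusted p = 0.00304, edgeR). The difference from T3 to T6 was -1.50 ± 0.63 and did not pass the test (adjusted p = 0.213, edgeR), and T9 was not called against T0 (1.12 ± 0.77, adjusted p = 0.248, edgeR). With 60 UMIs at T3 and 15 at T9 in all cells together, the later levels were near the 3-count floor of a plate.

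*Eya1* (ENSMUSG00000025932, chr1:14168954-14310235, minus strand) was the member that was not called in any step. It had 18.5, 24.3, and 28.5 CPM at T0, 28.1, 20.6, and 22.6 CPM at T3, 28.4, 16.5, and 27.6 CPM at T6, and 28.2, 16.1, and 21.2 CPM at T9. The ranges of the 4 time points overlapped. From T0 to T9 the difference was 0.39 ± 0.29 after TMM scaling (adjusted p = 0.285, edgeR), while mean CPM went from 23.8 to 21.8. Thinned shares of cells were between 5.30% at T3 and 7.46% at T0.

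Around them, the network that links *Pax3*, *Six2*, *Eya1*, *Dach1*, and their relatives held genes called in both directions. Of 12 tested, 5 rose and 3 fell from T0 to T3 (median 0.18 against 0.01 for all genes), and 2 rose and 4 fell from T0 to T9. Over all genes, 17% were higher and 16.2% lower at T3, and 23.6% were higher and 21.6% lower at T9, so that the share of the network called in either direction by T9, 6 of 12, was near that of all genes. *Eya4*, a further co-activator of the Eya family, rose by 1.55 from T0 to T3. *Pax3*, a marker of dermomyotome, fell by 4.82, *Dach1*, a co-repressor of this network, fell by 1.71, and *Eya3* fell by 0.97. *Dach1* fell again from T3 to T6, by 1.60, where no other gene of the network was called, and *Six4* was not called in any step.

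**Figure D3:**
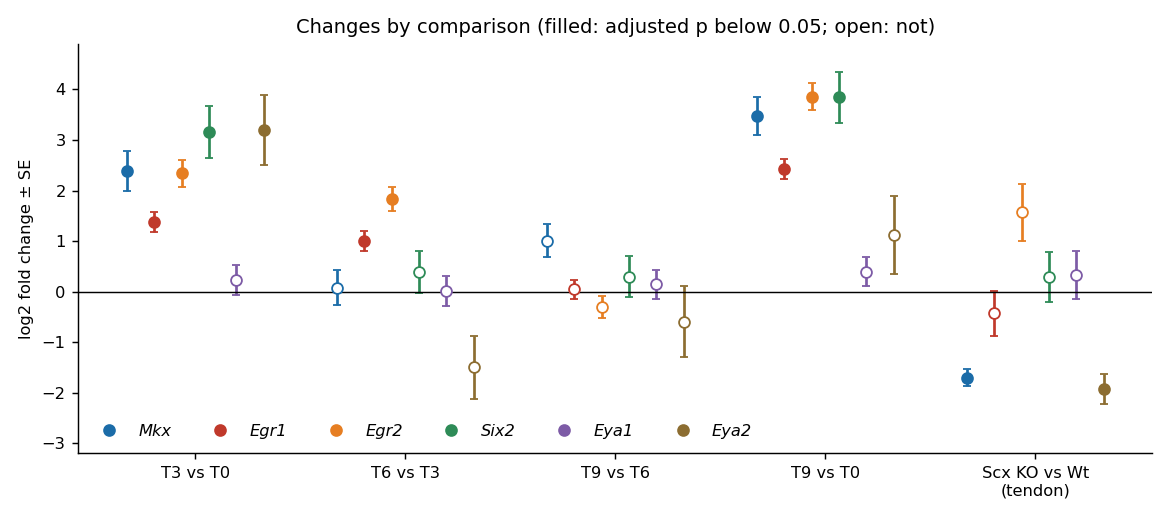
Log2 fold change with SE (vertical axis) of each gene in 4 comparisons of the culture and in the tendon of Scx_KO against Scx_Wt mice; filled points passed an adjusted p of 0.05 in edgeR and open points did not. 5 genes were filled from T0 to T3, *Egr1* and *Egr2* from T3 to T6, and *Mkx* (-1.70) and *Eya2* (-1.93) in the tendon.

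At T3, T6, and T9, 81.1%, 79.1%, and 39.0% of cells held an *Scx* UMI (*Scx*+ cells, 933, 909, and 447), and the others (*Scx*- cells) included some whose *Scx* mRNA was not captured. *Scx*+ cells also held more UMIs, with medians of 5952 against 4679.5 at T3, 9278 against 7455 at T6, and 8710 against 7467 at T9. Sums per plate and class were compared with the plate as a block. *Six2* was the member called at T9. It had 42.3, 26.7, and 33.9 CPM in *Scx*+ cells and 10.2, 2.91, and 3.94 CPM in *Scx*- cells of the same 3 plates, and the classes did not overlap. The difference was 2.65 ± 0.43 (adjusted p = 0.00202, edgeR), 1 of 6 members called where 0.394% of 12421 genes were called. Without T9 plate 2 it was 2.48 (adjusted p = 0.0534), and without the plate block it was 2.59 (adjusted p = 0.206).

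At T6, *Six2* had 19.6, 18.8, and 21.3 CPM in *Scx*+ cells and 1.86, 12.3, and 1.38 CPM in *Scx*- cells, where the *Scx*- sums rested on 1, 8, and 1 UMIs. The difference was 1.97 ± 0.56 and was not called (adjusted p = 0.130, edgeR), at a background of 0.604%. It passed without T6 plate 2 (3.63, adjusted p = 0.0171) and without the filter on low counts (2.07, adjusted p = 0.00283). Thinned cells, classed by *Scx* after thinning, showed a higher share in *Scx*+ cells in plate 1 only. *Six2* was found in 5.29%, 4.44%, and 4.62% of these *Scx*+ cells and in 0.83%, 4.67%, and 4.88% of these *Scx*- cells (plates 1, 2, and 3). At T3 the difference of *Six2* was 1.01 ± 0.62 (adjusted p = 0.583, edgeR). The difference at T9 exceeded that at T3 by 1.63 ± 0.83, which did not pass the test of the interaction (adjusted p = 0.732, edgeR).

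*Egr1* was called at T3, at 718, 722, and 836 CPM in *Scx*+ and 484, 646, and 656 CPM in *Scx*- cells, without overlap (0.38 ± 0.08, adjusted p = 0.0244, edgeR), where 0.765% of genes were called. This call was lost with DESeq2 (adjusted p = 0.0964), without T3 plate 1 (0.172), without T3 plate 3 (0.105), and without the plate block (0.834). *Fos* was also higher in the *Scx*+ cells of T3, by 0.29 ± 0.11, without passing the test (adjusted p = 0.249, edgeR), and *Junb*, another immediate early gene, was called higher (0.68, adjusted p = 0.0272, edgeR). *Mkx* was higher in *Scx*+ cells in all 3 plates at T6 and at T9, with 36.3 CPM ± 4.56 against 25.1 ± 1.63 at T9 (SD, n = 3 plates), but neither difference was called (0.93 ± 0.46 and 0.53 ± 0.33, adjusted p = 0.667 and 0.954, edgeR). With cells thinned to 3000 UMIs the T9 difference of *Mkx* turned to -0.22 (adjusted p = 0.975, edgeR). *Egr2*, *Eya1*, and *Eya2* were not called at any of these days.

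*Tnmd*, the gene of the tendon membrane protein tenomodulin and a late marker, was held by 147 cells at T6 and 155 cells at T9, with medians of 9955 and 9277 UMIs against 8619 and 7603.5 in the other cells. In T9 cells *Six2* was at 52.6, 45.3, and 61.1 CPM with *Tnmd* and at 18.9, 5.89, and 10.5 CPM without it, so that the classes did not overlap. The difference was 2.202 ± 0.36 (adjusted p = 0.0011, edgeR), 1 of 6 members called where 1.25% of 11846 genes were called. *Eya2* had a larger difference, 3.04 ± 1.08, which rested on 2, 2, and 5 UMIs in *Tnmd*+ cells and was not called (adjusted p = 0.266, edgeR). *Mkx* was at 36.0, 42.8, and 55.2 CPM with *Tnmd* and at 33.4, 26.1, and 23.6 CPM without it, and was not called (0.64 ± 0.32, adjusted p = 0.565, edgeR). The difference of *Six2* was 2.05 with cells thinned to 3000 UMIs (adjusted p = 0.0760) and 2.15 without the plate block (adjusted p = 0.103). *Scx* itself was higher in these *Tnmd*+ cells by 1.91 ± 0.14 (adjusted p = 2.48e-09, edgeR), and both classes are drawn from the same cells and are not separate tests of *Six2*.

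At T6, no member was called between *Tnmd*+ and *Tnmd*- cells, where 0.861% of genes were called. *Six2* was at 34.7, 43.7, and 18.4 CPM in *Tnmd*+ and 12.98, 12.5, and 17.8 CPM in *Tnmd*- cells (1.14 ± 0.37, adjusted p = 0.210, edgeR). *Mkx* was at 34.7, 47.7, and 9.21 CPM against 12.3, 18.2, and 13.5 CPM (1.00 ± 0.35, adjusted p = 0.313, edgeR), and plate 3, with 34 *Tnmd*+ cells, was the plate in which it was not higher. *Mkx* passed with a cut of 2 UMIs of *Tnmd* (1.62, adjusted p = 0.0023) and without T6 plate 3 (1.40, adjusted p = 0.0385), and *Six2* also passed without T6 plate 3 (1.56, adjusted p = 0.0392). *Egr1* leaned the other way, at 1241 CPM ± 292 in *Tnmd*+ and 1503 ± 246 in *Tnmd*- cells (SD, n = 3 plates), and was not called (-0.31 ± 0.08, adjusted p = 0.0785, edgeR), though it passed without the filter on low counts (-0.39, adjusted p = 0.000292). Of 18 immediate early genes tested at T6, 1 was higher and 17 were lower in *Tnmd*+ cells, and none was called. At T9, 5 of 18 were higher, and *Klf6* was called (0.86, adjusted p = 0.00415, edgeR). All 18 genes were read from the same sums of cells, so that their directions are not separate observations. The difference of *Six2* at T9 exceeded that at T6 by 1.06 ± 0.51 (adjusted p = 0.998 for the interaction, edgeR).

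Among the other TALE genes, *Meis2* was lower in *Tnmd*+ cells, by 0.64 on the log2 scale at T6 (adjusted p = 0.00545, edgeR) and by 0.69 at T9 (adjusted p = 0.00371, edgeR). Of 12 tested genes of the class, 2 were called in each of these comparisons, all lower. No gene of the class was called between *Scx*+ and *Scx*- cells at T3, T6, or T9.

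**Figure D4:**
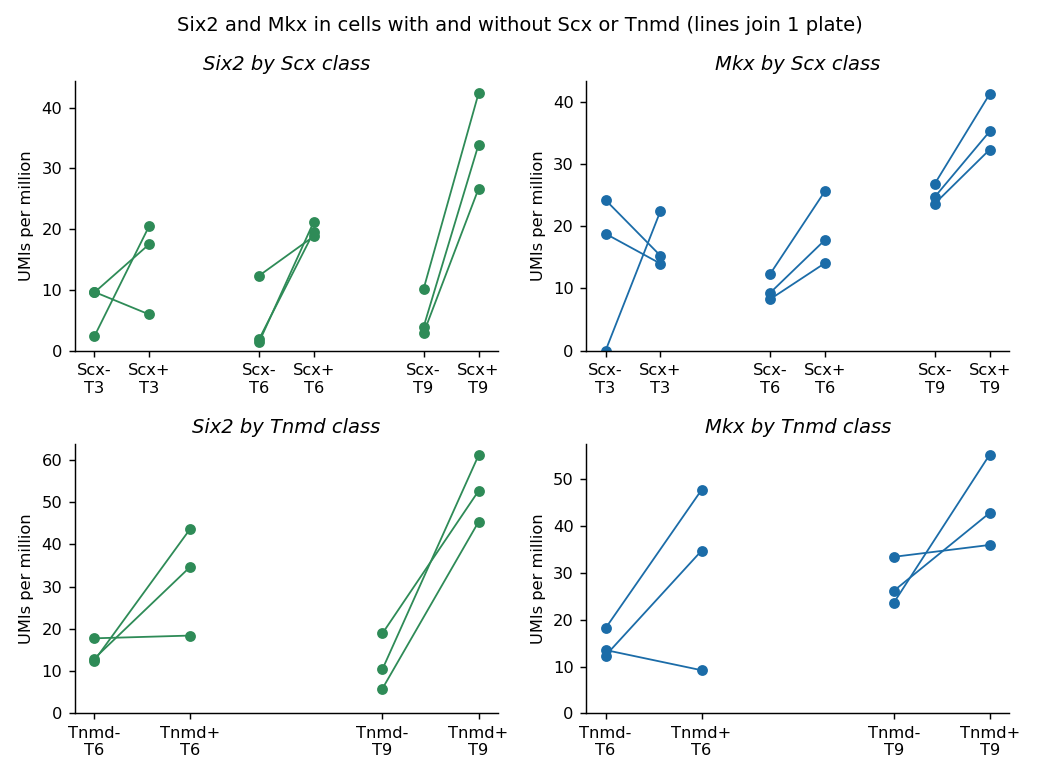
*Six2* (left) and *Mkx* (right) in CPM, vertical axes from 0, in cells without and with an *Scx* UMI (top) or a *Tnmd* UMI (bottom); each line joins both classes of 1 plate. At T9 all 3 lines of *Six2* rose in both rows, from at most 18.9 to at least 26.7, while those of *Mkx* did not all rise at T3 in the *Scx* panel or at T6 in the *Tnmd* panel.

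Cells were also counted, pooled over the plates of a time point. These are the same UMIs as in the classes above, so the counts are not a further test. Of 38 thinned T9 cells with a *Six2* UMI, 23 (60.5%) also had *Scx* and 13 (34.2%) had *Tnmd*, where 24.6% and 9.3% of all 1111 thinned cells did. By plate, 12, 7, and 4 cells had *Six2* with *Scx*, and 6, 6, and 1 had *Six2* with *Tnmd*. On earlier days the shares with *Scx* were closer to those of all thinned cells. At T3, 28 of 35 cells with *Six2* (80.0%) had *Scx*, against 71.0%, and at T6, 31 of 47 (66.0%) did, against 59.9%. *Tnmd* was in 0 of the 35 at T3, against 1.83%, and in 8 of the 47 (17.0%) at T6, against 8.23%. Of 86 T9 cells with *Mkx*, 20 (23.3%) had *Scx* and 11 (12.8%) had *Tnmd*. *Six2* and *Mkx* were found together in 4 of these cells at T9 and in 0 of 1081 at T6, where 47 cells had *Six2* and 50 had *Mkx*. At 3000 UMIs per cell, a gene present at a few molecules is missed in most cells, so that few shared cells do not show separate populations. *Egr1* was in 122 of 126 cells with *Egr2* (96.8%), against 88.0% of all cells at T9.

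Across the 12 plates, the level of each gene (log2 CPM after TMM scaling, pseudocount 1) was set beside that of every other tested gene. These correlations mostly follow the 4 time points and are given as a description. *Egr1* was most like *Fos* (Pearson's r = 0.993), *Anxa2* (0.991), and *Nr4a1* (0.989), and *Egr2* was most like *Nr4a1* (0.991), *Egr1* (0.989), and *Rflnb* (0.986). *Mkx* was most like *Rtn2* (0.993), *3110040N11Rik* (0.989), and *Ifi30* (0.985). The 3 genes nearest to *Six2* were *Il11ra1* (0.984), *Numbl* (0.976), and *Pdlim4* (0.969), and those nearest to *Eya2* were *Ntf3* (0.949), *Mme* (0.941), and *Cyp51* (0.933). For *Eya1*, which had little change to follow, the highest were *Fbxo44* (0.870), *Kdelc1* (0.841), and *Cmas* (0.831). With *Scx*, r was 0.855 for *Six2*, 0.783 for *Egr2*, 0.779 for *Eya2*, 0.771 for *Egr1*, 0.766 for *Mkx*, and 0.368 for *Eya1*.

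In the Achilles tendon, the targeted gene was checked first. *Scx* was at 103 and 81.3 CPM in the Scx_Wt mice and at 23.1 and 25.1 CPM in the Scx_KO mice (-1.88 ± 0.17, adjusted p = 0.000429, edgeR). The groups did not overlap, and 287 and 296 reads remained in the Scx_KO libraries. Which part of the gene the allele lacks is not given in the sources used here. *Tnmd*, known as a target of Scx, fell by 2.30 ± 0.20 (adjusted p = 0.000284, edgeR). Of the 6 genes, 2 were called, *Mkx* and *Eya2*, both lower, where 3.84% of 14602 genes were called. In whole tissue, fewer cells of a type and less RNA per cell cannot be told apart.

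*Mkx* had 987 and 999 reads in the Scx_Wt mice and 291 and 318 reads in the Scx_KO mice, which is 88.2 and 81.5 CPM against 23.5 and 27.0 CPM. It fell by 1.70 ± 0.17 (adjusted p = 0.000672, edgeR), beside 1.88 for *Scx*. *Eya2* had 225 and 213 reads against 71 and 45, or 20.1 and 17.4 CPM against 5.73 and 3.82 CPM. It fell by 1.93 ± 0.29 (adjusted p = 0.00686, edgeR). For both genes, each Scx_KO mouse lay below each Scx_Wt mouse, and both were called in every alternative run, including without any single mouse. Among their relatives, *Eya3*, *Eya4*, and *Six4* were not called, and of 11 tested genes of that network *Eya2* was the 1 that was called (median -0.07 against -0.0042 for all genes). Of 12 tested TALE genes *Mkx* was the 1 called.

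*Six2* had 31, 43, 52, and 39 reads in Scx_Wt 1, Scx_Wt 2, Scx_KO 1, and Scx_KO 2, and the groups overlapped (0.29 ± 0.49, adjusted p = 0.819, edgeR). *Eya1* had 74, 84, 54, and 141 reads in the same order, with the Scx_Wt mice between the Scx_KO mice (0.33 ± 0.47, adjusted p = 0.780, edgeR). With 31 to 52 reads of *Six2* per mouse and a standard error of 0.49, a small difference was not detectable at this depth.

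The value of *Egr1* depended on 1 mouse. It was at 79.4 CPM in Scx_Wt 1 and at 21.3, 30.6, and 40.4 CPM in Scx_Wt 2, Scx_KO 1, and Scx_KO 2. The difference was -0.42 ± 0.44 (adjusted p = 0.683, edgeR), became 0.73 without Scx_Wt 1 (adjusted p = 0.300), and became -1.06 without Scx_Wt 2 (adjusted p = 0.0270). *Fos* was also highest in Scx_Wt 1, at 36.9 CPM against 14.0, 17.6, and 14.1 CPM in the others, as was the sum of 19 immediate early genes (1006 CPM against 739 to 829). The part of that mouse's immediate early genes in the level of *Egr1* was not tested.

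*Egr2* was likewise high in 1 mouse. It had 48 and 41 reads in the Scx_Wt mice and 220 and 52 reads in the Scx_KO mice (4.29, 3.34, 17.7, and 4.41 CPM). The difference of 1.57 ± 0.56 was not called (adjusted p = 0.185, edgeR), although it passed without Scx_KO 2 (2.23, adjusted p = 0.00269) and without the filter on low counts (adjusted p = 0.00175). Scx_KO 1 also stood apart in the 6 markers of nerve and Schwann cells, which summed to 7429 CPM there and to 1178, 1101, and 305 CPM in Scx_Wt 1, Scx_Wt 2, and Scx_KO 2. *Sox10*, the lineage factor of Schwann cells, was at 33.6 CPM in Scx_KO 1 and at 5.81, 5.87, and 1.27 CPM in Scx_Wt 1, Scx_Wt 2, and Scx_KO 2. *Sox10* was picked from the list after its values were seen. All 6 markers were highest in Scx_KO 1 and lowest in Scx_KO 2, with *Egr2* highest in the same mouse. The part of nerve tissue in the level of *Egr2* was not tested. In the cultured cells *Sox10* was at or near 0 (at most 1.18 CPM as a mean of 3 plates), but the sum of the 6 markers was not. That sum was 77.8 to 115 CPM per plate at T0, 203 to 243 CPM at T3, 227 to 243 CPM at T6, and 330 to 356 CPM at T9. Its relation to *Egr2* in the culture was not tested.

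Marker sums of other tissues were compared between the groups as well. The sum of 9 cartilage markers was 2366 and 2565 CPM in Scx_Wt mice and 129 and 107 CPM in Scx_KO mice, and 5 of 7 tested fell. The sum of 16 skeletal muscle markers was 38903 and 64910 CPM against 84728 and 88043 CPM, with 3 of 16 higher and 1 lower. The sum of 7 fat markers was 4041 and 1631 CPM against 1041 and 604 CPM, with 4 of 7 lower. The sum of 8 endothelial markers was 1000 and 970 CPM against 745 and 603 CPM. None of these sums overlapped between the groups. The sums of blood and immune markers did overlap (277 to 481 CPM in Scx_Wt against 339 to 360 CPM in Scx_KO mice). Those of skin epithelium also overlapped (6.93 to 8.58 against 7.98 to 15.7 CPM). With so few mice per group, sums can lie apart without a difference between the groups. Over all genes, 1.77% were called higher and 2.07% lower. The part of other tissues in the levels of *Mkx* and *Eya2* was not tested. In the cultured cells, the 8 cartilage markers in that table summed to 52.3 to 59.3 CPM per plate at T0 and to at most 6.25 CPM at T9. Their relation to *Mkx* was not tested. Of 19 tendon matrix and differentiation genes, 5 rose and 4 fell in Scx_KO tendon. *Fmod*, which binds collagen fibrils, fell by 1.89, and *Kera*, another small proteoglycan, by 1.37, whereas *Col14a1* rose by 1.47 and *Col3a1* by 1.41.

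**Figure D5:**
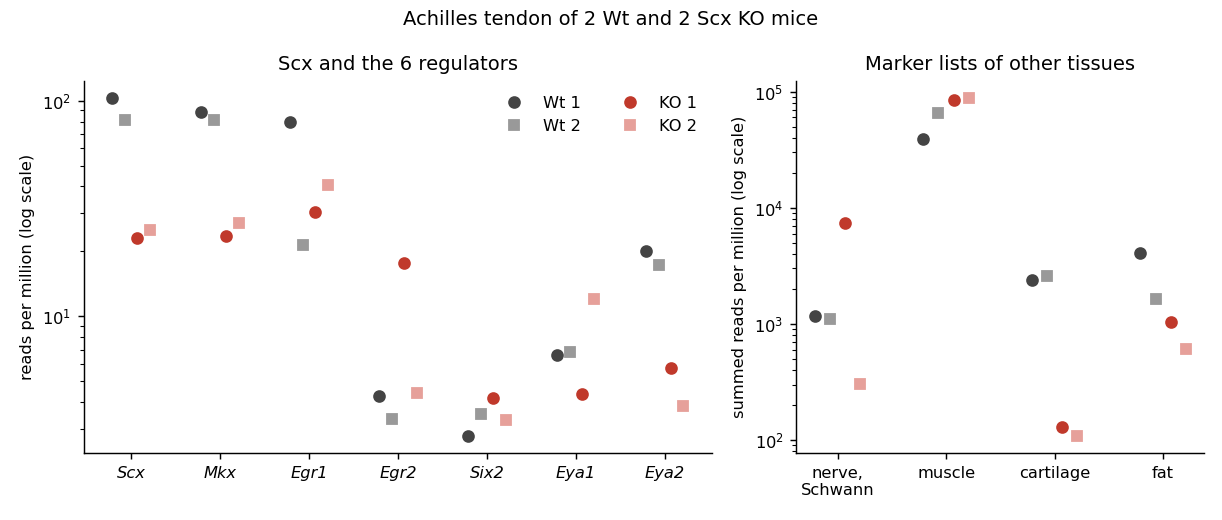
CPM (log axes) in the Achilles tendon of each of 2 Scx_Wt and 2 Scx_KO mice, for *Scx* and the 6 genes (left) and summed over marker lists of other tissues (right). *Scx*, *Mkx*, and *Eya2* were lower in both Scx_KO mice, *Egr2* and the nerve and Schwann markers were highest in Scx_KO 1, and *Egr1* was highest in Scx_Wt 1.

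Per kilobase of exon, *Mkx* was the highest of the 6 in Scx_Wt tendon, at 21.5 and 19.9 RPKM, CPM divided by exon length in kilobases,, below *Scx* (51.3 and 40.5 RPKM). *Egr1* came next by its mean, at 17.7 and 4.75 RPKM, then *Eya2* at 6.79 and 5.87 RPKM, and the order of these 2 is not settled by 2 mice, since Scx_Wt 2 had less *Egr1* than *Eya2*. *Six2* (1.31 and 1.66 RPKM), *Egr2* (1.26 and 0.98 RPKM), and *Eya1* (0.85 and 0.88 RPKM) were the lowest. In Scx_KO tendon *Mkx* (5.73 and 6.59 RPKM) lay below *Egr1* (6.82 and 9.01 RPKM). On GRCm38, 201 exon bases of *Mkx* are shared with the transcript *AC148004.2* on the same strand, and the exons of the other 5 share none with another gene.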

How the data were processed

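Single cells of *ScxGFP* iPSC cultures were sorted as live cells, without a gate on GFP, into 384-well plates and sequenced by CEL-Seq2. Per the labels and the study's methods, the authors trimmed the reads, aligned them to GRCm38 with HISAT2 2.2.1, assigned them with featureCounts, and counted UMIs with UMI-tools 1.0.1, and the bulk reads were aligned with HISAT2 2.0.4 and counted with featureCounts 1.5.0. Both deposited tables hold raw whole-number counts per gene, without normalization. The bulk kit keeps strand, but the strand setting of the counting is not given in the sources used here. Rows that are not Ensembl genes (3 rows, 0.0642% of UMIs) were left out, and 29528 of 29629 IDs had a symbol.

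Here, wells with at least 200 genes were kept, and counts were summed per plate. Sums were fitted with edgeR 4.0.16 in R 4.3.3 (filterByExpr, TMM, quasi-likelihood test, Benjamini-Hochberg adjustment over all genes tested), with all 12 plates in 1 fit and the 4 mice in another. Sums of cells with and without an *Scx* or *Tnmd* UMI were fitted with the plate as a block, without the gene that chose the cells. Bulk RPKM used the union of exons of GENCODE M21. On simulated counts with 200 genes changed 3-fold, 65.0% were recovered between T3 and T0 with 6 false calls (13372 genes), 65.5% between Scx_KO and Scx_Wt with 11 (14602 genes), 67.5% between *Scx*+ and *Scx*- cells at T9 with 12 (12421 genes), and 62.5% between *Tnmd*+ and *Tnmd*- cells at T9 with 6 (11846 genes). Apart from the 3-fold change, each simulated gene had a single mean over all libraries and its fitted spread, without effects of time or outlying plates. Recovery was taken over genes of all levels, so it does not give the sensitivity for genes of low count such as *Six2* or *Eya2*. Tables and figures used Python 3.11.15, pandas 2.3.3, and matplotlib 3.10.9. Intervals and limits for counts of 0 cover counting error only (exact binomial, 95%, and 3 counts).

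Alternatives were DESeq2 1.42.0, the replicate number as a block, RLE size factors, keeping genes of low count, a library covariate, only the plates compared, other cell filters, thinning to 3000 UMIs, and leaving out each library. The library covariate divides plates with more from those with fewer reads without a gene, as the study's mapping statistics list them. Named genes are the 6 members, their closest relatives, *Scx*, *Tnmd*, and *Fos*, of each list at most 6 called genes with the largest log2 fold change, and the 3 genes most like each member. The 6 genes, the lists, and the tests were chosen with earlier results of these data known. The deposited barcode list entered no step. Some genes of the lists are counted but not reported here by name.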

Additional observations from a re-analysis of the deposited data

How the results depend on the processing

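Of 677 values of the 6 genes under alternatives, 618 kept their direction and side of the threshold, 13 passed the threshold, 11 lost it, and 35 that were not called changed sign. From T0 to T3 and from T0 to T9 all 93 and 92 kept both. Where a value changed, the cause was not tested, except that fewer cells, samples, or genes entered some fits. Replicate numbers did not pair the plates or mice (r of same-numbered libraries ranged from -0.570, T3 and T6 plates 2, to 0.514, T6 and T9 plates 3), and the replicate block gave 109 calls from T6 to T9 and 1108 in Scx_KO tendon, against 217 and 560.

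Counts of called genes moved most in the smaller contrasts. From T3 to T6 (567 calls) they were 899 with DESeq2, 1010 with no filter, 1464 with the library covariate, 264 with only the 6 plates, and 291 to 890 when 1 plate was left out. From T6 to T9 (217 calls) they were 568, 684, 787, 45, and 35 to 852 in the same order. With cells without a *Fos* UMI only, counts were 2093 (T0 to T3), 74 (T3 to T6), 9 (T6 to T9), and 2258 (T0 to T9). No filter gave 1415 in tendon, and 380 to 666 were called without 1 mouse. From T0, leaving out a plate gave 3001 to 4405 (T3) and 4774 to 6491 (T9).

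For *Scx*+ against *Scx*- cells, at T3, T6, and T9, DESeq2 called 59, 29, and 31, no filter 258, 271, and 128, and leaving out 1 plate 30 to 125, 20 to 120, and 10 to 37. No replicate block (no plate block) called 0, 3, and 3 with edgeR, with 733 genes at an unadjusted p under 0.05 at T3, where DESeq2 with the block called 59. Thinning gave 26 at T6, and a cut of 2 UMIs gave 183 at T9. For *Tnmd*+ cells at T6, DESeq2 called 66. At T6 and T9, no filter called 229 and 229, no block 6 and 9, a cut of 2 UMIs 304 and 331, thinning 60 and 83, and leaving out 1 plate 38 to 175 and 55 to 104.

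The uncalled log2 differences that changed sign were as follows. From T3 to T6, *Eya1* was -0.0048 with DESeq2, -0.014 without pluripotent-like cells, -1.38 without *Fos* cells, -0.050 thinned, and -0.024 with 6 plates. From T6 to T9 without *Fos* cells, *Egr1* was -0.063 and *Egr2* 0.12, and thinned *Six2* was -0.019. In *Scx*+ cells at T3, *Eya2* was -0.0041 with RLE and -0.058 without the block. At T6 *Egr2* was -0.019 with DESeq2 and -0.024 with RLE. At T9 thinned, *Mkx* was -0.22, *Egr2* -0.099, and *Eya1* -0.024. In thinned *Tnmd*+ cells *Egr2* was 0.10 at T6 and 0.052 at T9. With 1 library left out, *Mkx* ranged from -0.32 to 0.29 and *Eya1* from -0.22 to 0.24 (T3 to T6), *Egr1* from -0.011 to 0.11, *Six2* from -0.25 to 0.52, and *Eya1* from -0.22 to 0.33 (T6 to T9), and *Egr1* from -1.06 to 0.73 and *Eya1* from -0.62 to 0.91 (tendon). In *Scx*+ cells *Mkx* ranged from -0.50 to 0.96 and *Eya2* from -0.51 to 0.95 at T3, *Egr2* from -0.068 to 0.12 at T6, and *Egr2* from -0.20 to 0.34 and *Eya1* from -0.17 to 0.32 at T9. In *Tnmd*+ cells at T6 *Eya1* ranged from -0.37 to 0.57. Depth limited *Six2*, *Eya2*, and the classes of cells, whose sums in places held fewer than 10 UMIs.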

Other observations

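A list of 11 regulators known from tendon and limb mesenchyme, which includes *Scx*, was also compared between the classes of cells. Between *Scx*+ and *Scx*- cells, 0.765% (T3), 0.604% (T6), and 0.394% (T9) of all genes tested were called. Between *Tnmd*+ and *Tnmd*- cells, 0.861% (T6) and 1.25% (T9) of all genes tested were called. Of 10 tested between *Scx*+ and *Scx*- cells, 0 were called at T3 (edgeR, with 1 at an unadjusted p under 0.05), 1 at T6, and 2 at T9, and of 11 tested between *Tnmd*+ and *Tnmd*- cells, 3 were called at T6 and 4 at T9, *Scx* among them. *Osr1*, a zinc finger factor of connective tissue progenitors, rose by 4.50 on the log2 scale from T0 to T3 (adjusted p = 7.87e-07, edgeR). In *Scx*+ cells at T3 its difference was 0.04 and that of *Klf2* was -0.10, and neither was called. At later times *Osr1* was lower in *Scx*+ cells, by 0.90 at T6 and 1.20 at T9 (adjusted p = 0.0404 and 0.00178, edgeR), and lower in *Tnmd*+ cells, by 1.37 at T6 and 1.27 at T9 (adjusted p = 0.0244 and 0.0114, edgeR). *Klf2*, a zinc finger factor named in tendon attachment, went the other way. It was higher in *Tnmd*+ cells by 1.03 at T6 and 1.17 at T9 (adjusted p = 0.00693 and 0.00106, edgeR) and in *Scx*+ cells by 1.09 at T9 (adjusted p = 0.0220, edgeR), the same direction as *Six2*. *Creb3l1*, known for its part in collagen secretion, rose by 1.51 from T0 to T3 and by 0.94 from T3 to T6 (adjusted p = 0.000196 and 0.0224, edgeR).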
